A study of Homo sapiens with 2 samples.

Results

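The genes described here are 30 transcriptional targets of the tumour suppressor p53, chosen by symbol and found in both gene tables, out of 36601 genes listed and 33492 with at least 1 molecule in a kept cell. They were sorted by role into 5 arrest targets, 12 apoptosis targets, 4 repair targets, 3 feedback targets and 6 targets that act in metabolism, in mitochondria, as a secreted factor or on RNA. All 30 were measured in the comparisons of libraries, mitochondrial classes and TPRX1 or ZSCAN4 cells below. The cells were H9, an established human embryonic stem cell line, held in the naive-state medium RSeT. One library came from cells given SO-L1, a sense oligonucleotide used as control, and the other from cells given ASO-L1, an oligonucleotide antisense to the LINE1 retrotransposon. Both oligonucleotides carried 6-FAM and were transfected at 25 nM.

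The other agents, their doses and the times were the same for the 2 libraries. Since each oligonucleotide had 1 library, differences of culture, sorting or library cannot be told apart from the oligonucleotide. From transfection to collection at 48 h both cultures held 10 nM DZNep, an inhibitor of methylation reactions that lowers the histone methyltransferase EZH2, and 5 nM TSA, a histone deacetylase inhibitor. For the first 24 h both also received 0.7 uM Trans-ISRIB, which blunts the integrated stress response, 5 uM Emricasan, a caspase inhibitor, and 10 uM of the ROCK inhibitor Y-27632. FAM-positive cells were sorted and run as 1 droplet 3′ library per oligonucleotide, so there was no replicate, no test between conditions was possible, and no p-value is given. Neither untransfected cells nor cells without DZNep and TSA are compared here.

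The tumour suppressor p53 is a transcription factor that is held low by the ubiquitin ligase MDM2 and becomes stable when DNA is damaged, when ribosome assembly fails or when other stress signals reach it. It then binds paired half-sites in DNA and raises genes that stop the cell cycle, repair DNA, permeabilise mitochondria or shut p53 itself down again. Pluripotent stem cells carry abundant p53 and are known for readily entering apoptosis. Several of these genes, among them GADD45A, GDF15, PLK2 and BTG2, are also raised by other stress pathways, so their levels do not measure p53 activity alone.

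A p53 consensus, 2 half-sites whose inner 4 bases were required exactly, was looked for in the RefSeq promoter table (GRCh38.p14), which holds 250 bases before and 50 bases after each start. At most 2 mismatches in the outer bases and at most 3 bases between the half-sites were allowed. The consensus is its own reverse complement, so 1 strand reads both. The table held 24 of the 30 genes, in 36 promoters, and 3 of the 36 promoters (8.33%), each of another gene, had a match, beside 162 of all 35114 promoters (0.461%). The 3 matches are shown because they let the motif be seen in an apoptosis receptor, an apoptosis nuclease and a repair gene. Capitals mark the inner 4 bases of each half-site.
DDB2: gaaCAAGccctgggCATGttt
FAS: ggaCAAGccctgaCAAGcca
AEN: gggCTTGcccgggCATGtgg
The DDB2 sequence lies at chr11:47214979-47214999 on the plus strand, begins 5 bases after 1 of the 2 starts in the table and has 0 mismatches and 1 base between the half-sites. The FAS sequence lies at chr10:88991309-88991328 on the plus strand, 122 bases before 1 of the 3 starts in the table, with 2 mismatches. The AEN sequence lies at chr15:88621306-88621325 on the plus strand, 34 bases before the start, with 2 mismatches. A match describes letters in a 300-base window and not binding. GADD45A, TNFRSF10A, TNFRSF10B, TP53INP1, PHLDA3 and RRM2B were not among the 24.

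Cells with at least 1000 detected genes and a mitochondrial share below 20% were kept, 6553 of 13070 barcodes in SO-L1 and 9084 of 11659 in ASO-L1. Each library was divided into cells below 2% mitochondrial UMIs, called low-MT cells here, and the other cells. SO-L1 had 1857 low-MT and 4696 other cells, and ASO-L1 had 2531 and 6553. Median depth was 33579 and 40876.5 non-mitochondrial UMIs in the SO-L1 classes and 44654 and 51945 in the ASO-L1 classes. Of 6105 barcodes found in both libraries, 274 were kept in both, and 5032 SO-L1 barcodes under 1000 genes carried a barcode kept in ASO-L1. Leaving out all barcodes found in both libraries moved several results, and values without them are given beside those between libraries and classes.

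Levels are given as CPM, the UMIs of a gene per 1000000 non-mitochondrial UMIs, summed over the cells of a class. The assay reads 1 end of each transcript, so these levels are not divided by gene length and can be compared between genes only as far as capture is even. The 6 pluripotency markers, POU5F1 among them, were present in all 4 classes, at a summed level between 1370 CPM in ASO-L1 low-MT cells and 2590 CPM in ASO-L1 other cells. The 5 naive markers summed to between 243 and 357 CPM. KLF17, a defining naive factor, was at 0.47 and 1.0 CPM in the other cells of SO-L1 and ASO-L1 and at 1.10 and 5.59 CPM in their low-MT cells. Of other cell types, the 5 mesendoderm markers summed to 17.2, 15.6, 145 and 63.5 CPM in SO-L1 low-MT, SO-L1 other, ASO-L1 low-MT and ASO-L1 other cells, and the 6 trophectoderm or amnion markers to 5.64, 2.99, 13.5 and 4.00. In the same order the 4 fibroblast markers, nearly all of it COL1A1, summed to 18.5, 6.74, 34.4 and 8.91 CPM and the 3 neural markers, nearly all of it NES, to 162, 113, 169 and 134. The 8 markers of the 8-cell stage embryo, most of it KHDC1L, summed to 55.4, 2.36, 377 and 38.8. In SO-L1 low-MT cells LEUTX, SOX1 and DCN had 0 UMIs. All these sums but those of the pluripotency and naive markers were higher in low-MT than in other cells of both libraries, as most of the 30 genes were. Their part in the results below was not tested.

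The arrest targets were low in ordinary cells of the control and high in low-MT cells. CDKN1A (ENSG00000124762, chr6:36676460-36687339, GRCh38), which encodes the cyclin-dependent kinase inhibitor p21, stood at 6.00 CPM in SO-L1 other cells and at 72.4 in SO-L1 low-MT cells. In ASO-L1 it stood at 24.0 CPM in other cells and at 99.1 in low-MT cells. Both low-MT classes lay above both other classes, and ASO-L1 lay above SO-L1 within each class.

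GADD45A, a growth arrest protein that binds PCNA and stress kinases, had 10.4 CPM in SO-L1 other cells and 73.3 in SO-L1 low-MT cells, against 53.1 and 309 CPM in the ASO-L1 classes. PLK2, a polo-like kinase of the arrest response, had 2.28 and 13.4 CPM in the SO-L1 classes and 9.12 and 52.3 in the ASO-L1 classes. PLK3, a related stress kinase, had 3.76 and 22.3 CPM against 9.03 and 31.0. These 3 genes had the same order over the classes as CDKN1A. BTG2, an antiproliferative deadenylase cofactor, was rarer, at 0.781 and 7.60 CPM in SO-L1 and 1.0 and 3.22 CPM in ASO-L1, and was higher in SO-L1 among low-MT cells.

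**Figure D1:**
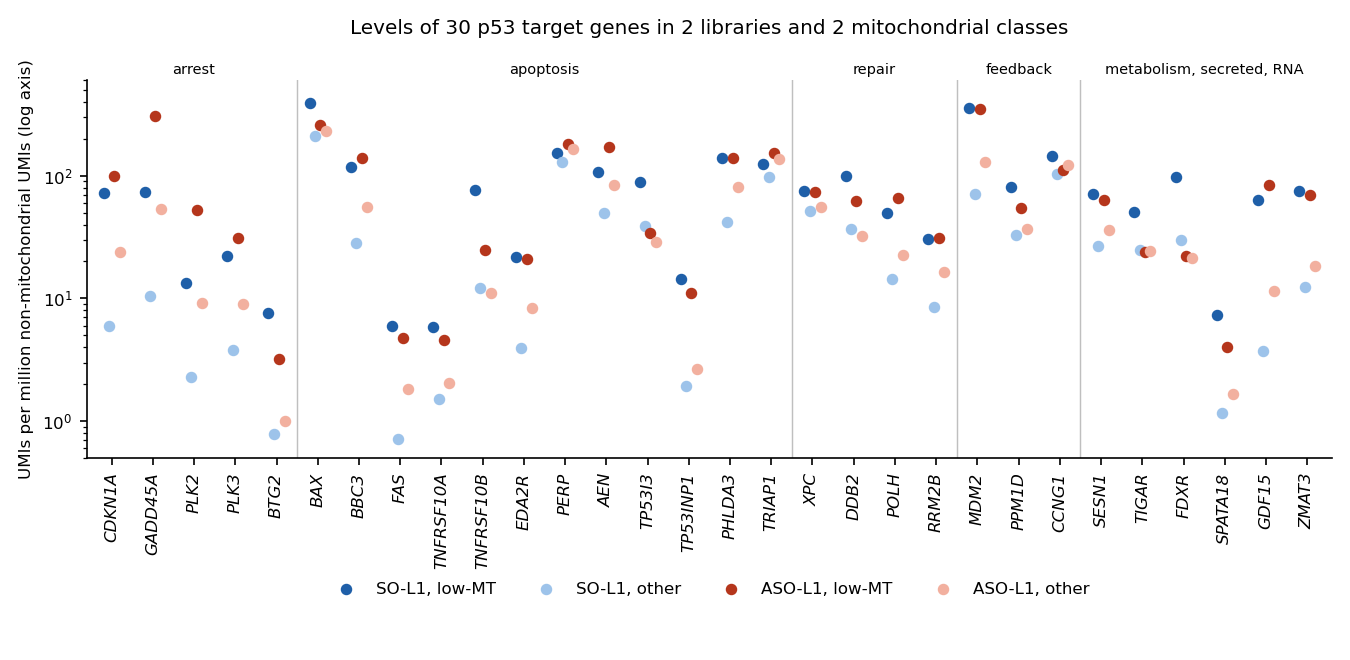
Level of each of the 30 genes in CPM of non-mitochondrial UMIs (log axis), as 1 point per library and mitochondrial class, with 1 library per oligonucleotide and hence no error bar. In 24 of the 30 genes both dark low-MT points lie above both pale points.

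Among the apoptosis targets the most abundant was BAX, the pore-forming protein of the mitochondrial outer membrane, at 210 and 390 CPM in SO-L1 other and low-MT cells and 232 and 257 CPM in the ASO-L1 classes. BBC3, which encodes the BH3-only protein PUMA, stood at 28.1 and 118 CPM in SO-L1 and at 56.1 and 141 in ASO-L1. AEN, an apoptosis-enhancing nuclease, stood at 49.7 and 107 CPM in SO-L1 and at 83.7 and 171 in ASO-L1. BBC3 and AEN thus followed the order of CDKN1A and BAX did not.

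The death receptors were scarce with 1 exception. FAS, the receptor for FAS ligand, was at 0.714 and 5.98 CPM in the SO-L1 classes and 1.83 and 4.73 in the ASO-L1 classes, and TNFRSF10A, a TRAIL receptor, was at 1.52 and 5.81 against 2.05 and 4.57. TNFRSF10B, the second TRAIL receptor, was more abundant, at 12.1 and 77.0 CPM in SO-L1 and 11.1 and 24.9 in ASO-L1. It was highest in SO-L1 low-MT cells.

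EDA2R, a receptor of the ectodysplasin family, had 3.95 and 21.7 CPM in SO-L1 and 8.30 and 20.8 in ASO-L1. TP53INP1, which promotes p53 phosphorylation and autophagy, had 1.92 and 14.5 CPM against 2.66 and 11. PHLDA3, an inhibitor of AKT, had 41.8 and 139 CPM against 80.4 and 139. TP53I3, a quinone oxidoreductase, stood apart from these 3: it was at 39.2 and 89.5 CPM in SO-L1 but 28.8 and 34.3 in ASO-L1. PERP, a desmosome and apoptosis protein, and TRIAP1, an inhibitor of apoptosome formation, spanned only 130 to 181 and 97.8 to 154 CPM over the 4 classes.

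Of the repair targets, XPC and DDB2, which recognise damage in nucleotide excision repair, had 51.4 and 36.6 CPM in SO-L1 other cells and 74.6 and 100 in SO-L1 low-MT cells. In ASO-L1 other cells they had 55.8 and 32.0 CPM, and in ASO-L1 low-MT cells 73.4 and 62.4. POLH, the translesion polymerase eta, had 14.5 and 49.6 CPM in SO-L1 and 22.8 and 65.6 in ASO-L1. RRM2B, the p53-induced subunit of ribonucleotide reductase, had 8.46 and 30.5 CPM in SO-L1 and 16.5 and 31.2 in ASO-L1. For each of the 4 genes both low-MT classes lay above both other classes.

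MDM2 (ENSG00000135679), the ubiquitin ligase that degrades p53, was the most abundant feedback target at 70.9 and 357 CPM in SO-L1 other and low-MT cells and 131 and 347 CPM in the ASO-L1 classes. PPM1D, the phosphatase WIP1 that switches off damage signalling, had 32.7 and 81.7 CPM against 36.5 and 54.2. CCNG1, cyclin G1, which recruits a phosphatase to MDM2, varied least of the 3, from 104 to 145 CPM, and was lower in low-MT cells than in other cells of ASO-L1.

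In the last group, GDF15, a secreted stress cytokine, ranged most widely, from 3.74 CPM in SO-L1 other cells to 63.5 in SO-L1 low-MT cells, 11.5 in ASO-L1 other cells and 84.8 in ASO-L1 low-MT cells. ZMAT3, an RNA-binding splicing regulator, had 12.4 and 75.6 CPM in SO-L1 and 18.3 and 69.2 in ASO-L1. SESN1, a sestrin that restrains mTORC1, had 26.6 and 70.4 CPM against 36.0 and 63.5. SPATA18, which acts in mitochondrial quality control, was scarce, at 1.17 and 7.33 CPM in SO-L1 and 1.67 and 4.05 in ASO-L1.

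TIGAR, a fructose bisphosphatase that slows glycolysis, and FDXR, the mitochondrial ferredoxin reductase, were high in 1 class only. TIGAR had 50.6 CPM in SO-L1 low-MT cells and between 24.0 and 24.7 CPM in the other 3 classes. FDXR had 97.5 CPM in SO-L1 low-MT cells and 29.9, 22.3 and 21.5 CPM in SO-L1 other, ASO-L1 low-MT and ASO-L1 other cells.

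Within each library the low-MT cells were set against the other cells. In SO-L1, 26 of the 30 genes were at least 1.5-fold higher in low-MT cells and 0 were at least 1.5-fold lower, where 22% of all 21557 measured genes were higher and 6.92% lower by that rule. The median log2 ratio of the 30 was 1.89 (95% interval over members 1.41 to 2.57), beside 0.11 for all measured genes. In ASO-L1, 21 were higher and 0 lower, where 29.1% of 23540 genes were higher and 12.8% lower, and the median was 1.16 (0.79 to 1.41), beside 0.17 for all genes. By role, 5 of 5 arrest targets were higher in both libraries. Apoptosis targets had 10 of 12 higher in SO-L1 and 8 in ASO-L1, repair targets 3 of 4 in both, feedback targets 2 of 3 and 1 of 3, and the last group 6 of 6 and 4 of 6.

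The highest ratio in both libraries was that of GDF15, 17.0 (95% counting interval 15.7 to 18.4) in SO-L1 and 7.40 (7.14 to 7.68) in ASO-L1. CDKN1A followed in SO-L1 at 12.1 (11.3 to 12.9), and was 4.12 (4.01 to 4.24) in ASO-L1. These intervals, from an exact conditional binomial (Clopper-Pearson) calculation, cover counting error only and not the spread between cultures. In SO-L1 the next were BTG2 at 9.73 (8.08 to 11.8), FAS at 8.37 (6.86 to 10.3) and TP53INP1 at 7.54 (6.67 to 8.54). In ASO-L1 the next after GDF15 were GADD45A at 5.82 (5.71 to 5.92), PLK2 at 5.73 (5.49 to 5.98) and TP53INP1 at 4.14 (3.80 to 4.51). The ASO-L1 sizes and ranking depended on the cells counted. With barcodes in both libraries left out, GADD45A was 11.6, PLK2 10.5, TP53INP1 8.55, CDKN1A 6.22 and MDM2 4.64. GDF15, at 126 against 11.8 CPM, then had a smaller ratio than GADD45A. Not every gene rose, and BAX was at 253 against 249 CPM. Of the 2 genes with most UMIs, BAX had 1.86 (1.83 to 1.89) in SO-L1 and 1.11 (1.10 to 1.12) in ASO-L1, and MDM2 had 5.04 in SO-L1 and 2.66 (2.62 to 2.70) in ASO-L1. The lowest ratios were 1.17 for PERP in SO-L1 and 0.911 for CCNG1 in ASO-L1.

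**Figure D2:**
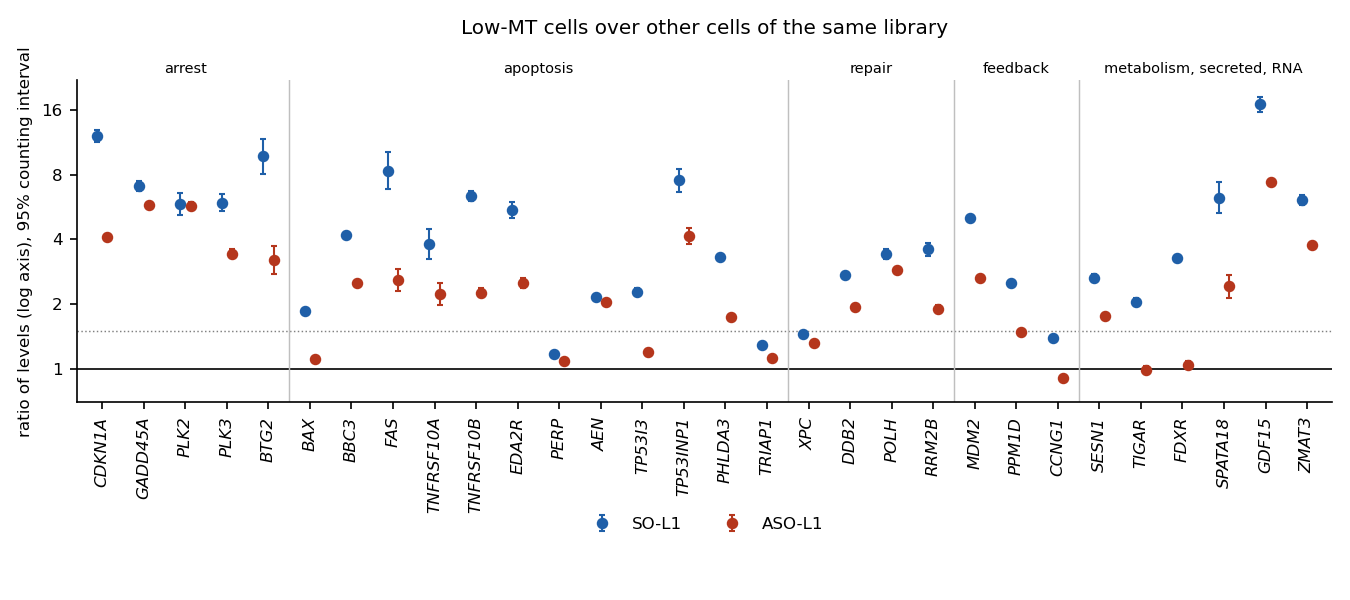
Level in low-MT cells divided by the level in the other cells of the same library (log axis) for each gene, with bars for the 95% counting interval and a dotted line at 1.5-fold. GDF15 is highest in both libraries, and every SO-L1 point lies above its ASO-L1 partner, the PLK2 pair by the least.

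The ratio was larger in SO-L1 than in ASO-L1 for all 30 genes, and the median of the quotient SO-L1 over ASO-L1 was 1.72. Over all 21428 genes measured in both it was larger in SO-L1 for 52.0%, with a median quotient of 1.02. For the 2 alternatives that follow, the share of all genes is not given here. With every cell given equal weight, 26 of the 30 were larger in SO-L1, and the exceptions were GADD45A, PLK2, AEN and TRIAP1. With all barcodes that occur in both libraries left out, 20 were larger in SO-L1 and 10 in ASO-L1, among them GADD45A at 11.6 and PLK2 at 10.5 in ASO-L1. That alternative removed the deeper cells of ASO-L1: its low-MT cells with a barcode in both libraries had a median of 58949.5 UMIs and summed to 2371 CPM over the 30 genes, and the 1043 with a barcode in 1 library had 16475 UMIs and 3994 CPM.

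In 24 of 30 genes both low-MT classes lay above both other classes, as in 29.2% of all 24917 measured genes. The exceptions were PERP, TP53I3, TRIAP1, CCNG1, TIGAR and FDXR. The SO-L1 ratio of 5 genes moved by over 1.5 times when cells were weighted equally. It was then 7.29 for CDKN1A, 4.57 for BTG2, 4.44 for FAS, 8.75 for GDF15 and 3.68 for PLK2.

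Shallow cells of the other class had high levels, which equal weighting counts more. In SO-L1, the 367 other cells below 10000 UMIs had CDKN1A at 109 CPM, GADD45A at 176 and MDM2 at 380, and the 1758 with 20000 to 40000 UMIs had 3.03, 8.43 and 61.0. In ASO-L1, the 266 other cells below 10000 UMIs had CDKN1A at 148 CPM, GADD45A at 545 and MDM2 at 775, and the 992 with 20000 to 40000 UMIs had 19.8, 51.0 and 121. The other cells below 10000 UMIs had levels of these 3 genes at or above those of their library's low-MT class, and those with 20000 to 40000 UMIs had not. Between 10000 and 20000 UMIs the 3 genes were at 118, 599 and 591 CPM in ASO-L1 other cells, all above the ASO-L1 low-MT class. In SO-L1 other cells they were at 35.3, 111 and 299 CPM there, with only GADD45A above its low-MT class. Among cells with at least 20000 UMIs the counts of genes above 1.5-fold in low-MT cells were again 26 in SO-L1 and 21 in ASO-L1. These counts are given without the share of all genes at that depth, so whether that share changed is not shown. Whether the shallow cells are single intact cells was not tested.

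The levels did not step at 2% mitochondrial share but went down over a range above it. In SO-L1 the summed level of the 30 genes was 2608 CPM below 0.2%, 3050 between 1% and 2%, 2237 between 2% and 4%, 1426 between 4% and 6% and 1009 between 10% and 20%. The SO-L1 bins on either side of 2% were small and shallow, with 119 cells at a median of 5634 UMIs and 156 at 3326.5. Mitochondrial share and depth cannot be told apart there. In ASO-L1 it was 2383 below 0.2%, 4124 between 0.5% and 1%, 2194 between 2% and 4%, 1625 between 4% and 6% and 1256 between 10% and 20%. In ASO-L1 the maximum lay in the 249 cells between 0.5% and 1%, whose median depth was 13229 UMIs, against 53842 in the 1563 cells below 0.2%. Depth thus varied along these bins, and some bins of like depth differed as well. In SO-L1 the median depth was 39288.5, 39233 and 38665 UMIs below 0.2%, between 4% and 6% and between 10% and 20%, where the summed levels were 2608, 1426 and 1009 CPM. Among cells with 20000 to 40000 UMIs the summed level was 2805 CPM in low-MT and 1012 in other cells of SO-L1, and 4103 and 1423 CPM in those of ASO-L1. Between 10000 and 20000 UMIs it was 3194 and 1989 CPM in SO-L1 and 4465 and 3609 CPM in ASO-L1. Below 10000 UMIs the classes did not differ that way, at 2682 and 2685 CPM in SO-L1 and 3254 and 3863 CPM in ASO-L1.

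Individual genes followed this course to different extents. In ASO-L1 CDKN1A went from 87.2 CPM below 0.2% to 172 between 0.5% and 1%, 34.1 between 4% and 6% and 11.7 between 8% and 10%. GADD45A in the same bins had 241, 674, 80.3 and 28.5 CPM. BAX in SO-L1 went from 396 CPM below 0.2% to 205 between 8% and 10%, and in ASO-L1 only from 259 to 218.

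**Figure D3:**
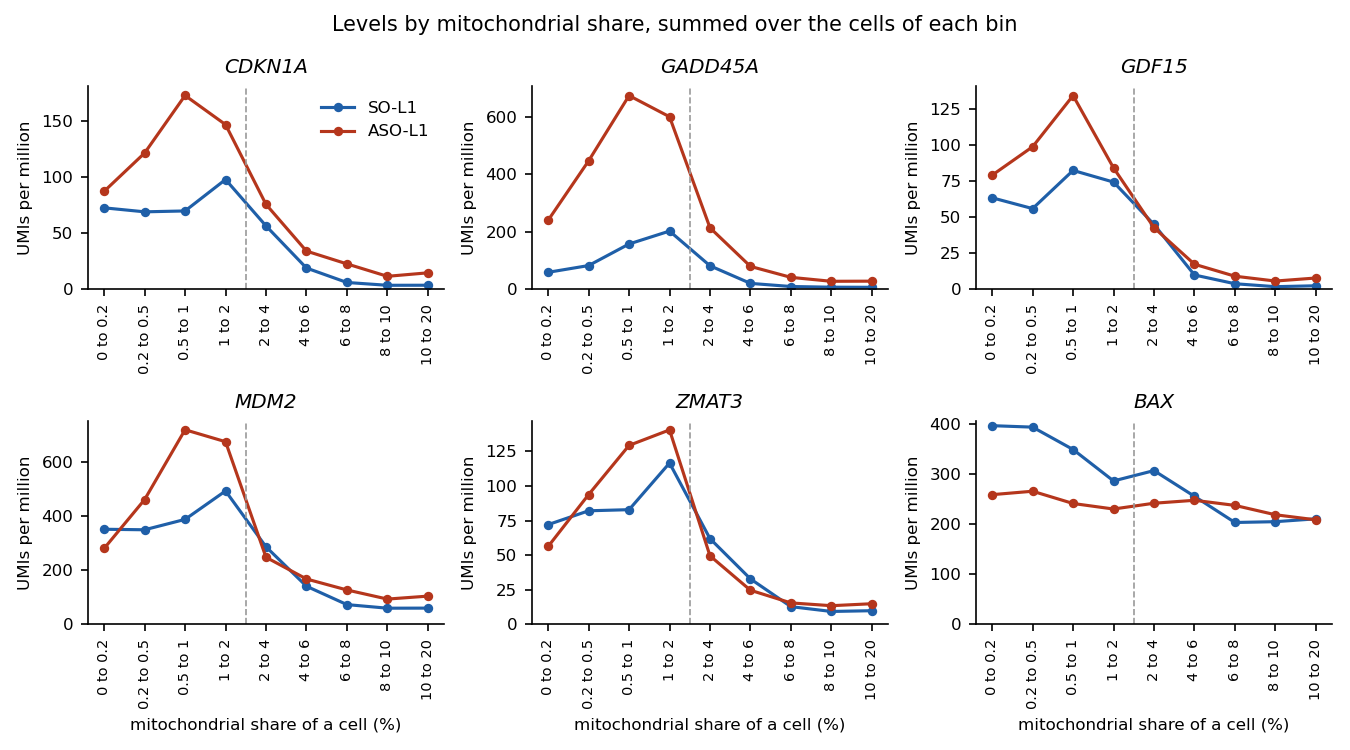
Level in CPM of non-mitochondrial UMIs, summed over the cells of each bin of mitochondrial share, for 6 of the 30 genes, with the dashed line at 2% and no error bars since each point is 1 library. CDKN1A, GADD45A, GDF15, MDM2 and ZMAT3 are high on the left of the line and low at 8% or more, and BAX changes less, in ASO-L1 from 259 to 218 CPM between the lowest bin and 8% to 10%.

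Between the libraries, the question was whether cells given the antisense oligonucleotide had other levels than the sense control. Over all kept cells ASO-L1 exceeded SO-L1 by 1.5-fold or more for 7 of 30 genes and fell short of it as far for 4, where 16.8% and 18.8% of all 24917 genes were. The median log2 ratio was 0.27 (−0.05 to 0.55), beside −0.04 for all genes. Those higher were CDKN1A at 1.97 (1.91 to 2.03), GADD45A at 4.61 (4.49 to 4.73), PLK2 at 4.04 (3.80 to 4.29), PLK3, BBC3, AEN and GDF15. Those lower were BTG2, TNFRSF10B at 0.531 (0.514 to 0.549), TP53I3 and FDXR at 0.475 (0.463 to 0.488). BAX at 0.945 (0.936 to 0.954) and MDM2 at 1.33 (1.31 to 1.35) lay between.

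The 2 classes gave different pictures. Among other cells 13 genes were higher in ASO-L1 by the 1.5-fold rule and 0 lower, where 13.3% and 16.6% of 23608 genes were, and the median was 0.50 (0.35 to 0.94). Among low-MT cells 3 were higher and 9 lower, where 23.8% and 25.4% of 21431 genes were, and the median was −0.09 (−0.40 to 0.25). The medians of all genes were −0.06 and −0.01. With barcodes in both libraries left out, 14 genes were higher among low-MT cells and the median was 0.56, so the direction of that median depends on which ASO-L1 cells are counted. The share and median of all genes under that alternative are not given here.

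By the 1.5-fold calls in the 2 classes, 3 patterns were set apart, and 8 of the 30 genes were within 1.5-fold in both. The share of all genes with each pattern is not given here, so the patterns are not shown to be particular to these genes. GADD45A, PLK2 and AEN were higher in ASO-L1 in both classes, GADD45A at 5.13 (4.90 to 5.37) in other cells and 4.21 (4.08 to 4.35) in low-MT cells and PLK2 at 4.00 (3.62 to 4.43) and 3.91 (3.63 to 4.22). A further 10, CDKN1A, PLK3, BBC3, FAS, EDA2R, PHLDA3, POLH, RRM2B, MDM2 and GDF15, were higher among other cells only. Of these CDKN1A was 4.00 (3.77 to 4.26) in other cells and 1.37 in low-MT cells, GDF15 3.06 (2.83 to 3.32) and 1.33, FAS 2.56 (2.13 to 3.10) and 0.792, and MDM2 1.84 and 0.971 (0.955 to 0.987). With equal weight per cell GDF15 in other cells was 1.96. With barcodes in both libraries left out, 8 of these 10 also passed 1.5-fold among low-MT cells, with CDKN1A at 2.13, PLK3 at 1.56, BBC3 at 1.84, EDA2R at 1.67, POLH at 2.44, RRM2B at 1.67, MDM2 at 1.77 and GDF15 at 1.89, while FAS was 1.09 and PHLDA3 1.07. GADD45A and PLK2 were then 9.04 and 7.41 among low-MT cells.

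The third pattern held 9 genes, BTG2, BAX, TNFRSF10B, TP53I3, DDB2, PPM1D, TIGAR, FDXR and SPATA18, that were lower in ASO-L1 among low-MT cells and within 1.5-fold among other cells. These 9 of 30 are near the 25.4% of all genes that were lower among low-MT cells. FDXR was lowest at 0.229 (0.218 to 0.240), followed by TNFRSF10B at 0.324 (0.309 to 0.340), TP53I3 at 0.383 (0.367 to 0.399) and BTG2 at 0.424. BAX was 0.660 (0.649 to 0.672) in low-MT cells and 1.10 (1.09 to 1.12) in other cells. PERP, with 11.8% of the 30 genes' UMIs in other cells, was 1.27 (1.25 to 1.29) there. By these counts 0 genes were higher in 1 class and lower in the other, and the share of all genes doing so is not given here. With barcodes in both libraries left out, 3 of the 9 were no longer lower among low-MT cells, DDB2 at 0.955, PPM1D at 1.12 and TIGAR at 0.749. The others were BTG2 at 0.534, BAX at 0.650, TNFRSF10B at 0.466, TP53I3 at 0.320, FDXR at 0.262 and SPATA18 at 0.621, and BTG2 and SPATA18 then passed 1.5-fold higher among other cells, at 1.59 and 1.64.

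**Figure D4:**
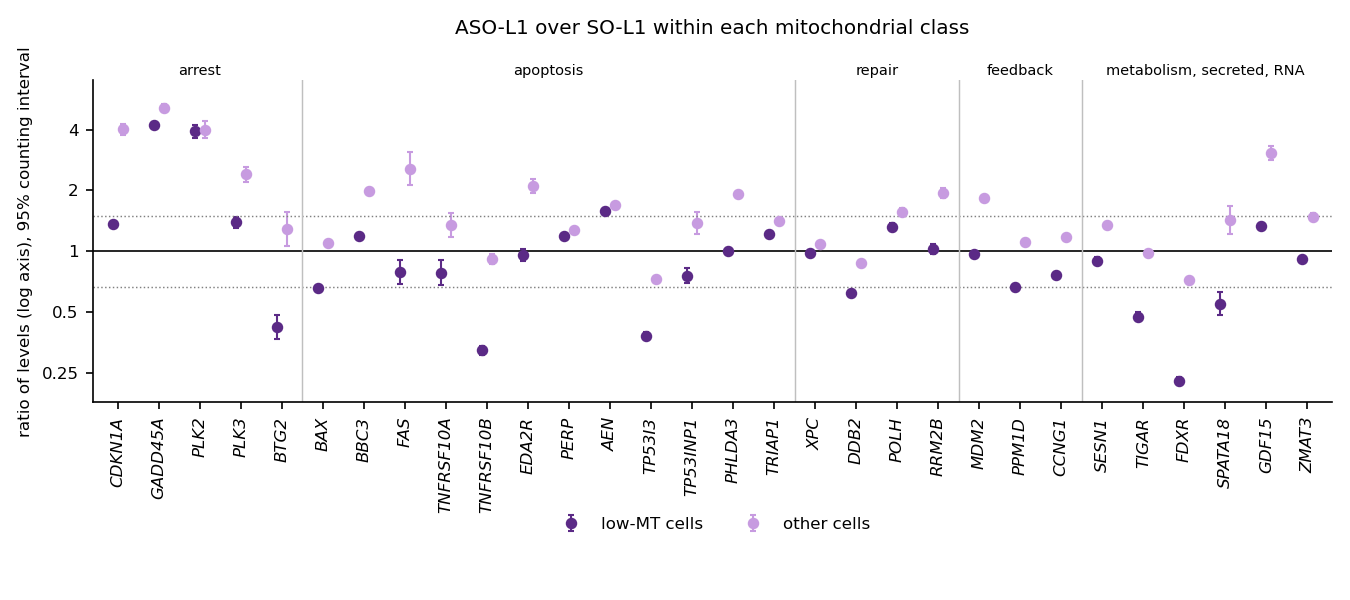
Level in ASO-L1 divided by the level in SO-L1 (log axis) among low-MT cells and among other cells, with bars for the 95% counting interval and dotted lines at 1.5-fold. GADD45A and PLK2 are near 4 or above in both classes, and FDXR, TNFRSF10B and TP53I3 are lowest, among low-MT cells.

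Genes that act on p53 were examined beside its targets. MDM4, the partner of MDM2 that masks the p53 activation domain, was 1.79 (1.74 to 1.85) in low-MT over other cells of SO-L1 and 2.07 (2.03 to 2.12) in ASO-L1. ASO-L1 over SO-L1 it was 1.23 in other and 1.42 in low-MT cells. Since p53 is controlled mainly at the protein level, such transcripts do not give the amount of p53.

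Among 20 p53 regulators, 19 of which could be measured in SO-L1, 3 were higher and 0 lower in low-MT cells of SO-L1 (22% and 6.92% of all genes), and 3 higher and 4 lower in those of ASO-L1 (29.1% and 12.8%). ASO-L1 over SO-L1, 1 was higher and 8 lower of 20 among low-MT cells (23.8% and 25.4% of all genes), and 1 and 1 among other cells (13.3% and 16.6%). The p53 relative TP63 was 0.266 (0.174 to 0.40) and CDKN2A, which encodes the MDM2 inhibitor ARF, was 3.47 (1.97 to 6.59) among low-MT cells, at 0.324 against 1.22 CPM and 0.823 against 0.237 CPM. TRIM24, a ubiquitin ligase for p53 and the most abundant of the 20, was 0.442 (0.435 to 0.449) there, and 0.790 among other cells. In low-MT over other cells it was 1.11 in SO-L1 and 0.624 in ASO-L1, and USP7, a deubiquitinase of MDM2, was 0.702 and 0.655. In the same comparison TP63 was 2.47 and its relative TP73 2.04 in SO-L1, and CDKN2A was 2.84 in ASO-L1.

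A further 36 p53 targets were listed beside the 30. In low-MT over other cells 31 were higher and 0 lower in SO-L1 (22% and 6.92% of all genes), and 21 higher and 1 lower in ASO-L1 (29.1% and 12.8%), with medians of 1.38 and 0.74 on the log2 scale. SFN, the 14-3-3 sigma arrest protein, was 11 (10.5 to 11.6) and 12 (11.8 to 12.3). RPS27L, a ribosomal protein paralogue with most UMIs on the list, was 2.60 and 1.33, and PMAIP1, which encodes NOXA, was 1.35 and 1.05. ASO-L1 over SO-L1, 10 were higher and 1 lower among other cells (13.3% and 16.6% of all genes), and 5 higher and 12 lower among low-MT cells (23.8% and 25.4%). IER5, an immediate early gene, was 4.65 (4.03 to 5.39), SFN 3.96 and RPS27L 0.794 among low-MT cells, and LIF, a cytokine, was 5.49 (4.11 to 7.47) among other cells, where RPS27L was 1.55 and PMAIP1 1.25.

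Cell cycle genes that p21 lowers through the DREAM repressor were examined as a list of 24. In SO-L1 all 24 were below 1 in low-MT over other cells, as were 8799 of all 21557 measured genes. At least 1.5-fold lower were 9 of the 24 (6.92% of all genes). BIRC5, the inhibitor of apoptosis survivin, was at 0.514 (0.50 to 0.530) and AURKB, a mitotic kinase, at 0.530 (0.508 to 0.552). The 2 with most UMIs, CCNB1, cyclin B1, and CKS1B, a CDK subunit, were 0.617 and 0.821 in SO-L1 and 0.995 and 1.18 in ASO-L1. In ASO-L1 4 were higher and 1 lower (29.1% and 12.8% of all genes). CDC20, an activator of the anaphase-promoting complex, was 2.46 (2.43 to 2.49) and CENPE, a kinetochore motor, 0.395 (0.375 to 0.416). ASO-L1 over SO-L1 among low-MT cells, 14 were higher and 1 lower (23.8% and 25.4% of all genes), with CDC20 at 3.61 (3.51 to 3.71), CENPE at 0.339 (0.319 to 0.361) and CKS1B at 2.21. Among other cells 3 were higher and 1 lower (13.3% and 16.6%), with CDK1 at 1.86, CCNA2 at 1.71 and CCNB1 at 0.957. CKS1B was 1.54 among other cells. CDKN1A itself was 1.37 among low-MT and 4.00 among other cells.

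Ribosomal and nucleolar proteins that can bind MDM2 or p53 were a list of 14. In low-MT over other cells 3 were lower and 0 higher in each library (6.92% and 12.8% of all genes lower in SO-L1 and ASO-L1, 22% and 29.1% higher). Nucleolin, NCL, the only one lower in both, was 0.557 (0.551 to 0.563) in SO-L1 and 0.625 (0.621 to 0.630) in ASO-L1. MYBBP1A, a nucleolar p53 partner, was 0.579 in SO-L1. RPL26, a ribosomal protein that raises p53 translation, was 0.548 (0.545 to 0.551) in ASO-L1. RPS14 and RPS27A, with most UMIs, lay between 0.911 and 1.11 in every comparison of classes and libraries. ASO-L1 over SO-L1, RPL26 was 0.393 (0.390 to 0.396) among low-MT cells and 0.697 among other cells, and RPS7 was 1.43 in both. RPL26 was the only one of the 14 at least 1.5-fold lower among low-MT cells (25.4% of all genes), and 0 were higher in either class (23.8% of all genes among low-MT and 13.3% among other cells).

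Cells with a UMI of TPRX1 or ZSCAN4, 2 genes of the 8-cell stage embryo, were set against the remaining cells of their class. There were 529 such cells among low-MT and 442 among other cells of ASO-L1, and 95 and 85 in SO-L1. They were deeper than the cells they were compared with, at a median of 52764 against 42643.5 UMIs and 58952.5 against 51426 in ASO-L1 and 37691 against 33180 and 48944 against 40743 in SO-L1. Of the 8-cell markers the TPRX1 and ZSCAN4 UMIs chose the cells, and LEUTX had 10, 1, 0 and 0 UMIs in them in the order just given.

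Among low-MT cells of ASO-L1, 0 genes were at least 1.5-fold higher in cells with TPRX1 or ZSCAN4 and 3 were lower, where 8.32% and 21.5% of 19912 genes were. The median was 0.01 (−0.18 to 0.10), beside −0.16 for all genes. The 3 were FAS at 0.589 (0.464 to 0.741), TNFRSF10B at 0.598 (0.541 to 0.660) and TIGAR at 0.622 (0.562 to 0.687), followed by TP53I3 at 0.687 (0.633 to 0.744) and FDXR at 0.738 (0.669 to 0.814). GADD45A was 1.32 (1.29 to 1.35), CDKN1A 1.23 and MDM2 1.02 (0.994 to 1.04). With 2 or more UMIs of the 2 genes required, 7 were lower and the median was −0.30, given without the values of all genes at that setting.

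Among low-MT cells of SO-L1, 4 genes were higher and 0 lower, where 10.8% and 8.9% of 17812 genes were, and the median was 0.30 (0.18 to 0.43). The 4 were PLK3 at 1.76 (1.47 to 2.10), GADD45A at 1.71 (1.55 to 1.88), GDF15 at 1.69 (1.52 to 1.87) and BTG2 at 1.61 (1.16 to 2.19). BBC3 was 1.43 (1.32 to 1.55), MDM2 1.15 (1.09 to 1.21) and BAX 0.960 (0.910 to 1.01). BTG2 rested on 46 UMIs in these cells and was 0.911 when TPRX1 and ZSCAN4 were called on counts thinned to 4000 UMIs per cell, which left 27 cells.

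Among other cells of ASO-L1 the arrest targets were higher in cells with TPRX1 or ZSCAN4. There 11 genes were higher and 0 lower, where 12.1% and 4.21% of 22213 genes were, and the median was 0.42 (0.21 to 0.66). All 5 arrest targets were among the 11, with GADD45A at 2.75 (2.65 to 2.85), PLK2 at 2.29 (2.09 to 2.51) and CDKN1A at 2.07 (1.95 to 2.19), and GDF15 at 2.23 (2.05 to 2.43) and ZMAT3 at 1.95 (1.82 to 2.09) followed. BAX at 0.943 and PERP at 0.948 did not differ by 1.5-fold. The median mitochondrial share was 6.85% in the cells with TPRX1 or ZSCAN4 and 7.31% in the whole class. With 2 or more UMIs required, 17 were higher, for which the share of all genes is not given. Those 96 cells had a median mitochondrial share of 4.80% and a median depth of 76096 UMIs. The part of mitochondrial share and depth in these ratios was not tested. With cells of very many UMIs left out, 8 were higher and PLK3 went from 1.60 to 1.05, so 4 of the 5 arrest targets remained past 1.5-fold.

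In other cells of SO-L1 7 genes, 3 of the 5 arrest targets among them, were higher and 1 lower, where 8.73% and 7.89% of 20387 genes were, and the median was 0.28 (0.08 to 0.46). FAS at 3.56 (1.74 to 6.59), GDF15 at 3.52 (2.64 to 4.62), CDKN1A at 2.85 (2.22 to 3.60) and PLK2 at 2.47 (1.58 to 3.70) rested on 11, 57, 75 and 25 UMIs in 85 cells. SPATA18, at 0.367 (0.0442 to 1.34), rested on 2 UMIs. BAX was 1.02 (0.954 to 1.08) and PERP 0.881 (0.807 to 0.960). Called on thinned counts, 5 cells remained and CDKN1A was 0.847. PLK2 was 1.22 among cells with at least 20000 UMIs.

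Levels summed over a class do not say how the genes are spread over its cells, so each cell was thinned without replacement to 4000 non-mitochondrial UMIs, which left out 165, 305, 140 and 129 shallower cells of SO-L1 low-MT, SO-L1 other, ASO-L1 low-MT and ASO-L1 other. A thinned cell had a median of 7 of the 30 genes in SO-L1 low-MT, 3 in SO-L1 other, 7 in ASO-L1 low-MT and 4 in ASO-L1 other cells. Without thinning the medians were 19, 13, 20 and 16. CDKN1A was found in 21.4% (95% exact binomial interval 19.5% to 23.4%) of thinned SO-L1 low-MT cells, 2.35% (1.92% to 2.84%) of SO-L1 other cells, 29.8% (28.0% to 31.7%) of ASO-L1 low-MT cells and 8.00% (7.35% to 8.69%) of ASO-L1 other cells. Unthinned shares were 58.1%, 11.4%, 72.4% and 34.6%. No cell type in the culture is known to lack these genes, so a share due to free RNA was not measured, and the SO-L1 barcodes under 1000 genes that would serve for it included 5032 with a barcode kept in ASO-L1.

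Had the UMIs been spread evenly over cells, CDKN1A would have been seen in 25.3%, 3.34%, 36.6% and 10.7% of them, above the shares seen in all 4 classes. The gap was wider for GADD45A, seen in 49.2% of ASO-L1 low-MT cells where even spread gives 80.7%, and for MDM2, seen in 59.6% where even spread gives 83.9%. BAX was closer to even, at 58.1% against 63.7%. In ASO-L1 low-MT cells GADD45A and MDM2 were thus farther from even spread than BAX was. In SO-L1 low-MT cells BAX was at 72.6% against 76.9% and CDKN1A at 21.4% against 25.3%. The gap also depends on the level of a gene, which was not adjusted for.

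The remaining genes were then compared between cells with 1 to 3 thinned CDKN1A UMIs and cells with 0, counting a gene as measured from 50 UMIs and at least 10 expected in the smaller group. This describes cells of 1 library and tests nothing. In SO-L1 low-MT cells, 356 against 1330, 20 of 26 measured genes were at least 1.5-fold higher and 0 lower, where 7.65% and 5.56% of 11523 genes were. In SO-L1 other cells, 100 against 4288, 12 of 15 were higher and 0 lower, where 5.92% and 7.93% of 6505 genes were. In ASO-L1 low-MT cells, 683 against 1678, 15 of 25 were higher and 0 lower, where 6% and 10.8% of 12618 genes were. In ASO-L1 other cells, 496 against 5910, 17 of 24 were higher and 0 lower, where 10.2% and 11.5% of 11749 genes were.

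MDM2 went with CDKN1A in each class, at 676 against 320 CPM in SO-L1 low-MT, 410 against 68.6 in SO-L1 other, 675 against 341 in ASO-L1 low-MT and 445 against 122 in ASO-L1 other cells. GADD45A was 3.18 (2.71 to 3.74), 2.19 (2.05 to 2.34) and 5.71 (5.15 to 6.33) in the 3 classes where it was measured, and PLK2 3.10 (2.03 to 4.71), 2.08 (1.77 to 2.46) and 7.17 (5.71 to 8.98). BBC3 was 1.81, 5.88, 1.96 and 3.05 in the order of MDM2. CCNG1 did not, at 0.94, 1.19, 0.95 and 0.95, nor did BAX outside SO-L1 other cells, at 1.14, 1.66, 0.98 and 1.02.

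Medians of depth and mitochondrial share were close but not equal in the 2 sets of cells. Median full depth was 34558 against 35548.5 UMIs in SO-L1 low-MT and 43857 against 47678 in ASO-L1 low-MT cells. In ASO-L1 other cells it was 52045.5 against 52426 UMIs, and median mitochondrial share was 6.47% against 7.38%. The medians hide a difference in shallow cells of the other class. Of SO-L1 other cells, 80 of 100 with CDKN1A and 4165 of 4288 with 0 had at least 20000 UMIs. Of ASO-L1 other cells, 420 of 496 and 5723 of 5910 had. The part of these shallow cells in the ratios was not tested. Among cells with at least 20000 UMIs before thinning, 15 of 25, 6 of 11, 15 of 25 and 14 of 24 genes were higher in the 4 classes, where 6.38%, 4.11%, 5.2% and 6.89% of genes were. In the same cells 0 of the measured genes among the 30 were lower in any class, where 5.76%, 8.18%, 8.27% and 13.3% of genes were. In SO-L1 other cells the count thus went from 12 to 6, with 80 cells in place of 100.

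**Figure D5:**
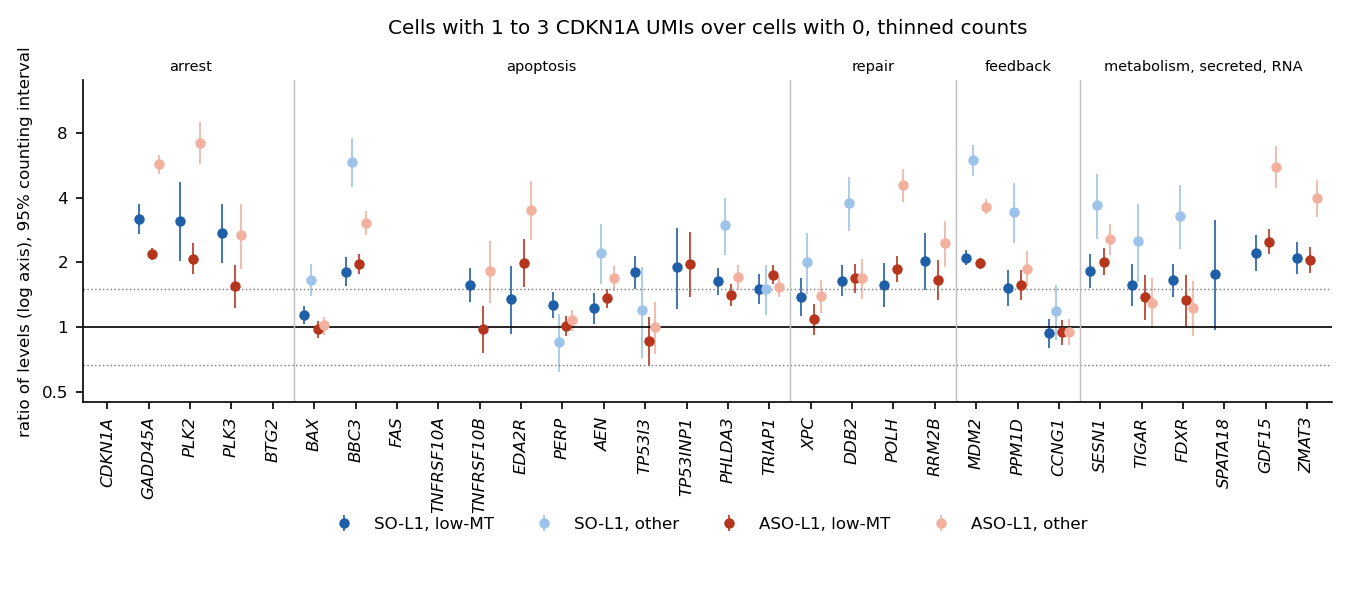
Level in cells with 1 to 3 thinned CDKN1A UMIs divided by the level in cells with 0 (log axis), for each gene measured in a library and class, with bars for the 95% counting interval; CDKN1A defines the groups and is not drawn. Most points lie above the dotted line at 1.5-fold, and BAX, PERP and CCNG1 lie near 1 in both ASO-L1 classes.

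The counting behind some genes has limits that the tables cannot settle. By GENCODE 29, 12 of the 30 genes overlap an antisense gene, among them CDKN1A with DINOL, FAS with ACTA2, TP53INP1 with NDUFAF6 and MDM2 with CPM, and 2 overlap a gene on their own strand. The labels and notes do not state whether strand or introns entered the counting, so reads of these neighbours may be included. Fewer cells carrying a transcript and less of it in each cell cannot be told apart in the summed levels.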

How the data were processed

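Single-cell 3′ RNA libraries of H9 cells given SO-L1 or ASO-L1 (1 library each) were analysed. The authors deposited UMI counts for every gene in every barcode, not normalized, per the file headers. The submitters' processing notes name Cell Ranger 7.1.0 and hg38. The 13 mitochondrial genes were left out of totals. CPM from summed UMIs and their ratios were computed in Python 3.11.15 with numpy 2.4.6, scipy 1.17.1 and pandas 2.3.3. A gene counted as measured from 50 UMIs over both groups and as higher or lower from 1.5-fold. Where a sum was 0, 3 UMIs stood as the floor. No doublet caller was run: an alternative left out cells above 2 times the median UMIs of their class. Interval coverage was tested on simulated data. In each comparison full values are given for the 5 genes farthest from 1 and any with at least 10% of the UMIs of all 30. From each further list the 2 farthest from 1 and the 2 with most UMIs are named, and always MDM4; results of 2 further genes under this rule are not reported here. The genes, lists and classes were chosen with earlier results of these data known. Alternatives are given in the closing section, and those on depth bins, deep cells, low expected counts, bins and cells kept under 1 barcode in both libraries were chosen after seeing the data.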

Additional observations from a re-analysis of the deposited data

How the results depend on the processing

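No result has a replicate, and intervals cover counting error of UMIs only. No paired analysis was possible because there was 1 library per group and no test. Counts and medians for the 30 genes were within 1.5 times or the interval of the value reported with mitochondrial genes kept in the total, without a cell filter, with 200 UMIs as the minimum, without cells between 1% and 3% mitochondrial share and without the cells kept under 1 barcode in both libraries. Among 3970 values of single genes under the alternatives, 117 moved by over 1.5 times and 135 lay on the opposite side of 1. The 3970 include alternatives that cannot change a single ratio, such as the 2-fold rule and the 200 UMI minimum. Their share is thus no measure of stability. Most of the 117 came with barcodes in both libraries left out or with stricter calls of TPRX1 or ZSCAN4. Counts in this section are given without the share of all genes at the same setting. For low-MT over other cells the log2 median of all genes was 0.11 (SO-L1) and 0.17 (ASO-L1), 0.24 and 0.28 with mitochondrial genes in the total, and −0.16 for TPRX1 or ZSCAN4 cells among ASO-L1 low-MT cells.

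With barcodes in both libraries left out, 12 genes were higher in ASO-L1 over all cells and 14 among low-MT cells (median 0.56), PPM1D was 1.12 among low-MT cells, and the median of low-MT over other cells in ASO-L1 was 1.69. In SO-L1 cells with TPRX1 or ZSCAN4 it gave 9 higher and a median of 0.44 among low-MT cells and 0 lower among other cells. At 2-fold, ASO-L1 over SO-L1 had 2 higher and 1 lower over all cells, 5 lower among low-MT cells and 7 higher among other cells. For cells with TPRX1 or ZSCAN4 it had 0 lower in ASO-L1 low-MT, 0 higher in SO-L1 low-MT and 4 higher in other cells of each library. With equal weight per cell 5 were higher in ASO-L1 among low-MT cells, and 7 and 13 were higher in TPRX1 or ZSCAN4 cells of the SO-L1 low-MT and other classes. With thinned cells these 3 counts were 5, 7 and 14, with 1 lower in SO-L1 low-MT, 1 lower in ASO-L1 other, 0 lower in SO-L1 other and a median of 0.65 there. Scaling by the median of ratios gave 1 lower and a median of 0.17 in ASO-L1 low-MT cells with TPRX1 or ZSCAN4.

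With 2 or more TPRX1 or ZSCAN4 UMIs there were 7 lower (median −0.30) in ASO-L1 low-MT, 9 higher and 1 lower (0.0932) in SO-L1 low-MT, 17 higher (0.69) in ASO-L1 other and 20 higher and 2 lower (1.44) in the 5 cells of SO-L1 other. Called on thinned counts there were 1 higher and 10 lower (−0.36) in ASO-L1 low-MT, 9 higher in SO-L1 low-MT with BTG2 at 0.911, 1 lower in ASO-L1 other, and 2 higher and 7 lower (0.00) in SO-L1 other with CDKN1A at 0.847. Without cells of very many UMIs 8 were higher in SO-L1 low-MT (0.47). In SO-L1 other cells 2 were lower under 2000 genes and under 10% mitochondrial share, 2 among cells with at least 20000 UMIs, and 0 with at least 10 UMIs expected. The cause of these changes was not tested.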
